A study of Mus musculus with 58 samples.

Results

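The small nuclear RNAs U1 and U2 and the small nucleolar RNA U3 are each represented by 1 probe on the mouse array used in this series, under the gene symbols Rnu1b6, Rnu2-10 and Rnu3b1. These 3 genes, of 20018 named on the array, were chosen from earlier results of the same data, in which they stood out in the dose comparisons. The log2 ratios that chose them are therefore given as a description, with a standard error and no test. U1 and U2 are the RNA parts of 2 particles of the spliceosome. U1 pairs with the 5′ splice site of a newly made transcript, and U2 pairs with the branch point upstream of the 3′ splice site. U3 is a box C/D RNA of the nucleolus that pairs with the precursor of ribosomal RNA and is needed to cut out the RNA of the small ribosomal subunit. Cells hold all 3 RNAs in great abundance, and their mature forms end without a poly(A) tail.

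Male Muta™Mouse animals (MutaTMMouse in the labels), a transgenic line made for scoring mutations, were about 10 weeks old and received benz(a)anthracene (BaA) in olive oil by gavage on 28 days. Group D0 received a dose of 0, D1 of 20, D2 of 40 and D3 of 80 mg/kg-bw/day, and every group, D0 included, received olive oil. Tissues were collected at 72 h after the last dose, and RNA came from a random slice of each. Lung gave 20 arrays (5 mice a group), liver 19 (5, 5, 5 and 4 from D0 to D3) and forestomach 19 (4, 5, 5 and 5). The mice are numbered 1 to 20 across the tissues, and the liver of mouse 20 and the forestomach of mouse 5 were not analysed here. On each array the tissue RNA carried Cy5, and the universal mouse reference RNA, a pool from 11 cell lines, carried Cy3. The comparisons ask whether BaA changed the signal of these RNAs in each tissue, and whether the Cy3 channel, which holds the same reference RNA everywhere, stayed level.

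The accessions of the probes were those of the RefSeq genes Rnu1b6 (166 bases), Rnu2-10 (187 bases) and Rnu3b1 (215 bases). U1 and U3 genes have near-identical copies in the mouse genome, so these probes may read more than 1 gene, and the symbols name the copy whose accession the array carries. In Cy5 the spots were well above background on 58, 57 and 58 of 58 arrays, in the order Rnu1b6, Rnu2-10 and Rnu3b1. The exception was Rnu2-10 in the liver of mouse 2 (D0). All 3 probes passed the filter on low signal in every tissue, and none was saturated or marked as an outlier spot (0 arrays). In bulk tissue, fewer cells of a type and less RNA per cell cannot be told apart. The labelling primes from poly(A), and the short RNAs are retained poorly by silica columns of the kind used. What either step contributes to the values was not tested.

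The share of gene probes well above background in Cy5 was 42.8 to 53.8% on lung arrays, 32.8 to 44.6% on liver arrays and 36.8 to 68.5% on forestomach arrays. Tissue labels and marker genes matched. The mean log2 ratio of the lung markers was 6.16 to 6.54 on lung arrays, that of the liver markers 7.31 to 7.96 on liver arrays, and that of squamous markers 3.50 to 4.65 on forestomach arrays. Some arrays stood apart in markers of neighbouring tissue. The D0 lung of mouse 5 reached 3.43 for squamous epithelium and 4.65 for muscle and heart, and the D2 lung of mouse 14 reached 5.46 for fat. At D3, the lung of mouse 16 was at 1.36 for squamous epithelium and 3.03 for muscle and heart, and that of mouse 17 at 1.26 for immune cells, where no other lung was above 0.71. Forestomach arrays ranged from 0.83 to 6.49 for glandular stomach and from 0.90 to 4.86 for fat. The lung differences of the 3 genes at D2 and D3, and some other lung results, are therefore also given without mice 5 and 14. The D3 differences are also given without mouse 16 or mouse 17. Lung values include every mouse unless stated. Arrays of a tissue lay on 3 slides, each holding all 4 dose groups.

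Rnu1b6, the U1 gene, had lower log2 ratios in lung at the higher doses. The D0 lungs of mice 1 to 5 read 0.29, 0.51, 0.39, 0.83 and 0.85, and the D1 lungs of mice 6 to 10 read 0.41, 0.29, 0.63, 0.17 and -0.13. At D2, mice 11 to 15 read -0.28, -0.62, -0.84, -1.24 and -0.64. At D3, mice 16 to 20 read -0.11, -1.12, -0.74, -1.85 and -0.43. No D2 or D3 lung reached the lowest D0 lung, whereas D1 overlapped with D0. The mean log2 ratio was 0.58 ± 0.25 at D0, 0.27 ± 0.28 at D1, -0.72 ± 0.35 at D2 and -0.85 ± 0.67 at D3 (SD, n = 5 each). The differences from D0 in log2 ratio were -0.30 at D1, -1.30 at D2 and -1.43 at D3 (SE 0.25 each), so that the D3 ratio was 2.69-fold lower.

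The liver order ran the other way for the same probe. D0 livers of mice 1 to 5 read -1.22, -2.40, -1.77, -1.76 and -0.15, and D1 livers of mice 6 to 10 read -0.09, -0.56, -0.90, 0.19 and 0.01. D2 livers of mice 11 to 15 read -0.06, -0.41, 0.20, 0.20 and 0.26, and D3 livers of mice 16 to 19 read -0.04, -1.05, -0.92 and -0.77. Of the D0 livers, mouse 5 lay among the dosed animals, so that the D0 range overlapped with that of each dose. The D0 mean of -1.46 ± 0.84 (SD, n = 5) was below -0.27 ± 0.45 at D1, 0.04 ± 0.28 at D2 and -0.69 ± 0.45 at D3. The differences in log2 ratio were 1.19 (SE 0.31), 1.5 (SE 0.31) and 0.77 (SE 0.33), and that at D2 was 2.82-fold. The highest mean of U1 in liver was thus at D2 rather than D3, while the D1 and D2 livers overlapped and were not compared by a test.

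Forestomach held the narrowest Rnu1b6 range, 2.16-fold from the lowest to the highest array against 6.51-fold in lung and 6.32-fold in liver. D0 forestomachs of mice 1 to 4 read 0.22, -0.34, -0.29 and -0.40. The D1, D2 and D3 arrays ran from -0.81 to -0.36 (median -0.59), from -0.16 to 0.24 (median -0.02) and from -0.87 to 0.23 (median -0.44). All dose groups overlapped with D0, and the differences were -0.37, 0.23 and -0.11 (SE 0.18 each). The D3 difference was between -0.35 and 0.06 over the alternative settings and so has no settled sign.

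Rnu2-10, the U2 gene, followed U1 in lung. D0 lungs of mice 1 to 5 read -1.04, -0.71, -0.96, -0.30 and -0.54, and D1 lungs of mice 6 to 10 read -1.02, -0.62, -0.78, -1.22 and -1.48. At D2, mice 11 to 15 read -0.88, -1.64, -1.69, -2.29 and -1.24. At D3, mice 16 to 20 read -1.28, -1.98, -1.52, -2.57 and -1.40. Every D3 lung was below every D0 lung, and at D2 mouse 11 alone reached into the D0 range. Group means were -0.71 ± 0.30 at D0, -1.02 ± 0.34 at D1, -1.54 ± 0.53 at D2 and -1.75 ± 0.53 at D3 (SD, n = 5 each). The differences in log2 ratio were -0.31, -0.83 and -1.04 (SE 0.25 each), and that at D3 was 2.05-fold.

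In liver, the U2 probe read higher at D1 and D2. D0 livers of mice 1 to 5 read -1.57, -2.0, -1.39, -1.69 and -0.98, and D1 livers of mice 6 to 10 read -0.93, -0.66, -0.73, -0.61 and -0.15. D2 livers of mice 11 to 15 read -0.79, -0.98, -0.71, -0.72 and -0.22, and D3 livers of mice 16 to 19 read -0.80, -1.07, -1.06 and -1.23. Neither D1 nor D2 overlapped with D0, although the highest D0 liver and the lowest D2 liver both round to -0.98, and D3 did overlap. Differences from D0 were 0.91 (SE 0.17), 0.84 (SE 0.17) and 0.49 (SE 0.18). In forestomach the U2 groups all overlapped with D0, at means of -1.32 ± 0.27 (SD, n = 4), -1.33 ± 0.36, -0.93 ± 0.34 and -1.20 ± 0.25 from D0 to D3, and the differences were -0.01, 0.40 and 0.12 (SE 0.20 each).

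**Figure D1:**
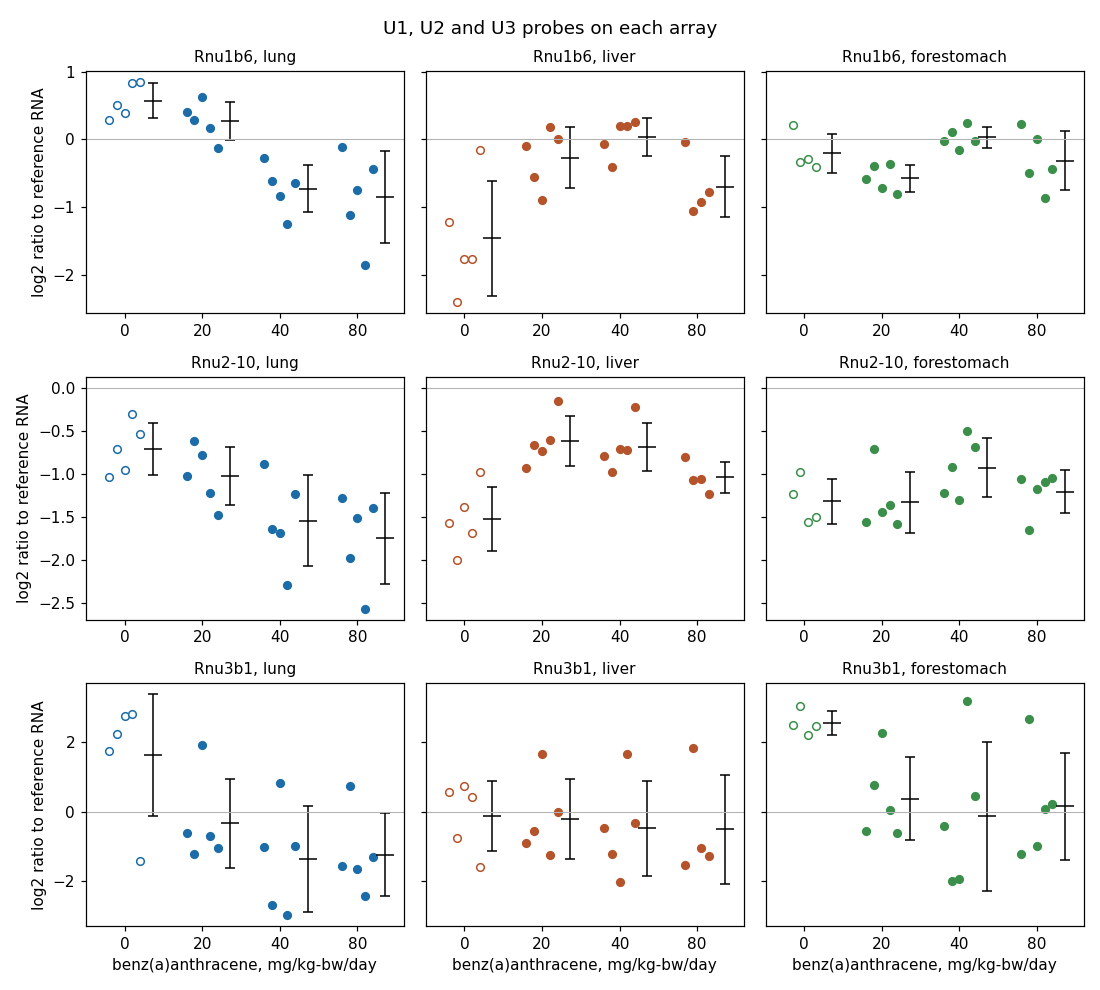
Log2 ratio of tissue RNA to reference RNA for the U1 (Rnu1b6), U2 (Rnu2-10) and U3 (Rnu3b1) probes by BaA dose in mg/kg-bw/day. Each point is 1 array (open, vehicle), and the bars give the group mean and SD; in lung the Rnu1b6 mean went from 0.58 at D0 to -0.85 at D3, in liver from -1.46 at D0 to 0.04 at D2, and Rnu3b1 spread over 14.6- to 55.8-fold within each tissue.

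Rnu3b1, the U3 gene, behaved differently from both. Its spread among mice of a group was far wider, with a within-group SD of the log2 ratio of 1.46 in lung, 1.28 in liver and 1.5 in forestomach, against 0.29 to 0.55 for Rnu1b6 and 0.30 to 0.44 for Rnu2-10. The Cy3 signal of the same spots had a within-group SD of 0.13, 0.15 and 0.05. In Cy5 it was 1.48, 1.28 and 1.48, so the spread lay in the tissue channel. From the lowest to the highest array, Rnu3b1 covered 55.8-fold in lung, 14.6-fold in liver and 36.8-fold in forestomach.

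D0 lungs of mice 1 to 5 read 1.75, 2.24, 2.76, 2.82 and -1.41 for Rnu3b1, and D1 lungs of mice 6 to 10 read -0.61, -1.21, 1.93, -0.71 and -1.06. D2 lungs of mice 11 to 15 read -1.03, -2.69, 0.82, -2.98 and -0.98, and D3 lungs of mice 16 to 20 read -1.57, 0.75, -1.66, -2.44 and -1.30. Of the D0 lungs, 4 were high, and the low one was mouse 5, the array with squamous and muscle markers. In each dosed group 1 lung was high, from mouse 8, mouse 13 and mouse 17. Differences from D0 in log2 ratio were -1.96, -3.0 and -2.87 (SE 0.83 each), and all dose groups overlapped with D0. Without mouse 5 the D3 difference was -3.64 (SE 0.73).

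D0 forestomachs of mice 1 to 4 read 2.51, 3.04, 2.23 and 2.47 for the U3 probe. D1 forestomachs of mice 6 to 10 read -0.55, 0.76, 2.26, 0.04 and -0.61, D2 forestomachs of mice 11 to 15 read -0.41, -1.99, -1.94, 3.21 and 0.44, and D3 forestomachs of mice 16 to 20 read -1.23, 2.68, -0.98, 0.07 and 0.23. Again 1 mouse of each dosed group, mouse 8, mouse 14 and mouse 17, reached the D0 values, and the other dosed mice lay below all of them. The differences from D0 were -2.18, -2.70 and -2.40 (SE 0.93 each). The forestomach of mouse 5, low in both other tissues, is missing from this D0 group. On the D0 forestomachs of mice 1 to 4 the mean log2 ratio of the glandular stomach markers was 0.99, 6.02, 1.17 and 0.83. It ran from 5.26 to 6.43 on D1, from 1.16 to 6.49 on D2 and from 1.31 to 6.20 on D3. For fat markers, 3 of the 4 D0 arrays were at 4.16 to 4.86, and that of mouse 2, the highest D0 array for U3, was at 1.14. The dosed groups ran from 1.09 to 4.41 at D1, 1.04 to 4.36 at D2 and 0.90 to 3.09 at D3. The median D3 change was -2.41 for the 5 fat marker probes tested and 1.45 for the 11 glandular stomach probes. In both lists 0 probes passed the thresholds. The part of either marker list in the U3 values, or in the U1 and U2 values of forestomach, was not tested.

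In liver the U3 groups overlapped widely. D0 livers of mice 1 to 5 read 0.57, -0.75, 0.74, 0.43 and -1.59, and D1 livers of mice 6 to 10 read -0.89, -0.56, 1.68, -1.26 and -0.02. D2 livers of mice 11 to 15 read -0.48, -1.23, -2.03, 1.67 and -0.33, and D3 livers of mice 16 to 19 read -1.54, 1.84, -1.06 and -1.27. The highest liver of each dosed group came from mouse 8, mouse 14 and mouse 17, the same mice as in forestomach. Group differences were smaller than their errors, at -0.09 (SE 0.72), -0.36 (SE 0.72) and -0.38 (SE 0.76). The D3 value depended on single livers, at -1.17 without mouse 17, -0.75 without mouse 5 and -0.04 without mouse 16.

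**Figure D2:**
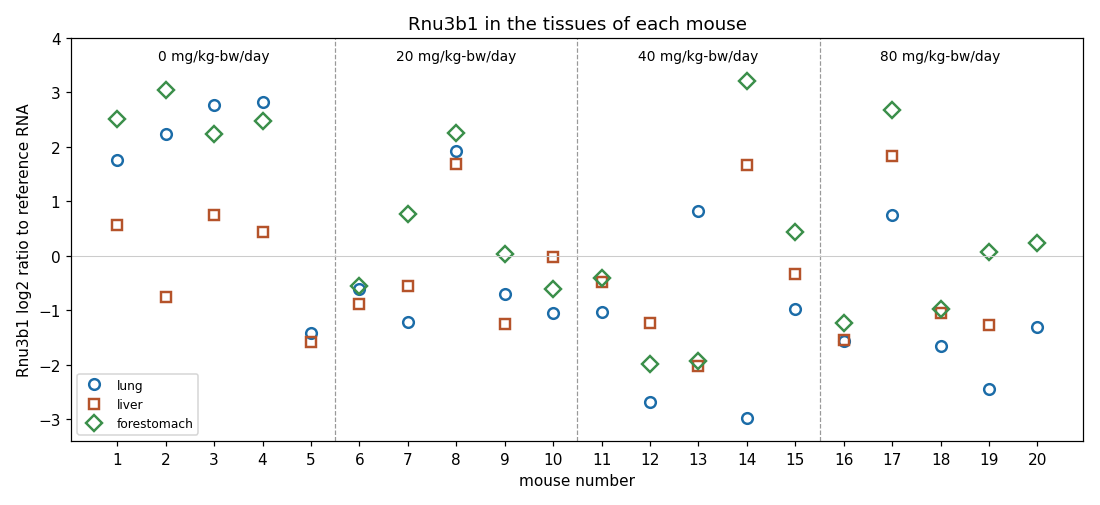
Rnu3b1 log2 ratio to the reference RNA (y axis) in lung, liver and forestomach of each mouse (x axis, mouse number), with dashed lines between the dose groups. Mouse 8 was high in all 3 tissues (1.93, 1.68 and 2.26), and mouse 14 was high in liver and forestomach (1.67 and 3.21) and at -2.98 in lung.

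A change counted as past the study's thresholds if limma's adjusted p was at most 0.05 within the comparison and the change was at least 1.5-fold, and these counts are a description for the 3 genes. In lung, 0 of the 3 passed at D1 (0% of all probes tested there passed), 1 at D2 (0.556% of all probes), which was Rnu1b6, and 3 at D3 (1.88% of all probes). In liver, Rnu2-10 passed at D1 (0.241% of all probes), Rnu1b6 and Rnu2-10 passed at D2 (0.588%) and 0 passed at D3 (0.434%). In forestomach 0 of 3 passed at any dose, beside 0% of all probes at D1, 0.0124% at D2 and 0.0248% at D3. The dose trend was called on limma's adjusted p of at most 0.05 alone, with no fold threshold. In lung, the fitted slope over 80 mg/kg-bw/day was -1.51 (SE 0.27) for Rnu1b6 and -1.06 (SE 0.24) for Rnu2-10, which passed, and -2.63 (SE 0.86) for Rnu3b1, which did not. Of all lung probes 11.6% had a dose trend past that adjusted p. The share was 0.676% for liver and 0.0248% for forestomach, and 0 of the 3 genes passed there. The members were picked for such changes, so nothing follows from how these counts compare with the background.

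Leaving out the lungs of mice 5 and 14 gave D3 differences of -1.36 (SE 0.25) for Rnu1b6, -1.0 (SE 0.25) for Rnu2-10 and -3.64 (SE 0.70) for Rnu3b1, all past the thresholds. At D2 the same step gave -1.10 (SE 0.27) for Rnu1b6, no longer past them, and -3.36 (SE 0.73) for Rnu3b1, now past them. For Rnu2-10 it gave -0.61 (SE 0.26) at D2, still not past them. Mouse 16 had the highest Rnu1b6 of the D3 lungs and mouse 17 the highest Rnu3b1. Without mouse 16 the D3 differences were -1.61 for Rnu1b6, -1.16 for Rnu2-10 and -2.79 (SE 0.90) for Rnu3b1, the last no longer past the thresholds. Without mouse 17 they were -1.36, -0.98 and -3.37, all past them. Within single slides the D3 minus D0 difference in lung was negative on 3 of 3 slides for every one of the genes, at -2.24 to -1.02 for Rnu1b6, -1.61 to -0.75 for Rnu2-10 and -5.20 to -2.18 for Rnu3b1. In liver it was positive on 3 of 3 slides for Rnu1b6 (0.17 to 1.23) and Rnu2-10 (0.40 to 0.69), and for Rnu3b1 it ran from -1.75 to 1.27. Among marker lists, immune cell markers also moved in lung, from a mean log2 ratio of -0.01 to 0.23 on D0 arrays to 0.25 to 1.26 at D3, where 1 of 9 probes of the list rose and 0 fell. Their part in the lung values was not tested.

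The Cy3 channel was not level for U1. In lung the normalised log2 Cy3 signal of Rnu1b6 was 12.16 ± 0.07 at D0, 12.22 ± 0.12 at D1, 12.51 ± 0.11 at D2 and 12.63 ± 0.12 at D3 (SD, n = 5 each), although every array held the same reference RNA. The Cy3 differences from D0 were 0.07, 0.36 and 0.48 (SE 0.07 each), opposite in sign to those in Cy5, which were -0.23, -0.94 and -0.95 (SE 0.22 each). Of the D3 difference in log2 ratio of -1.43, the Cy3 channel thus held 0.48. In the single lungs the signals of the channels ran against each other, with r = -0.80 and rho = -0.82 over 20 arrays, given as a description. In liver, the Cy3 signal of Rnu1b6 was lower at each dose, by differences of -0.22, -0.26 and -0.40 (SE 0.08 each), while Cy5 was higher by 0.97 (SE 0.33), 1.24 (SE 0.33) and 0.37 (SE 0.35). The signs of the group differences in the 2 channels were opposed in liver as well, and at D3 the Cy3 difference was as large as the one in Cy5. Over the 19 single livers, however, the channels had r = -0.12 and rho = -0.07, also a description. With the signals before normalisation r was 0.40 in liver and -0.79 in lung, so the sign in liver depended on the scaling.

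For Rnu2-10 the lung Cy3 differences were 0.02, 0.27 and 0.33 (SE 0.07 each) against -0.29, -0.56 and -0.71 (SE 0.24 each) in Cy5. Its Cy3 signal in liver stayed between -0.08 and 0.02 of D0 (SE 0.16 to 0.17), so its liver differences of 0.83 (SE 0.18), 0.87 (SE 0.18) and 0.45 (SE 0.19) in Cy5 nearly equalled those of the ratio. Rnu3b1 had Cy3 differences between -0.04 and 0.15 in the 3 tissues. In Cy5 alone the D3 lung differences were -0.95 (SE 0.22) for Rnu1b6, past the thresholds, and -0.71 (SE 0.24) for Rnu2-10 and -2.77 (SE 0.85) for Rnu3b1, not past them. In forestomach, the Cy3 signal of Rnu1b6 varied with a within-group SD of 0.47, and its Cy5 signal ran with it (r = 0.86, rho = 0.47, n = 19, a description). Arrays of the third forestomach slide, on which 36.8 to 40.6% of probes were well above background against 51.1 to 68.5% on the other two, had Rnu1b6 Cy3 signals of 11.71 to 11.90, below the 12.54 to 12.82 of the others.

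**Figure D3:**
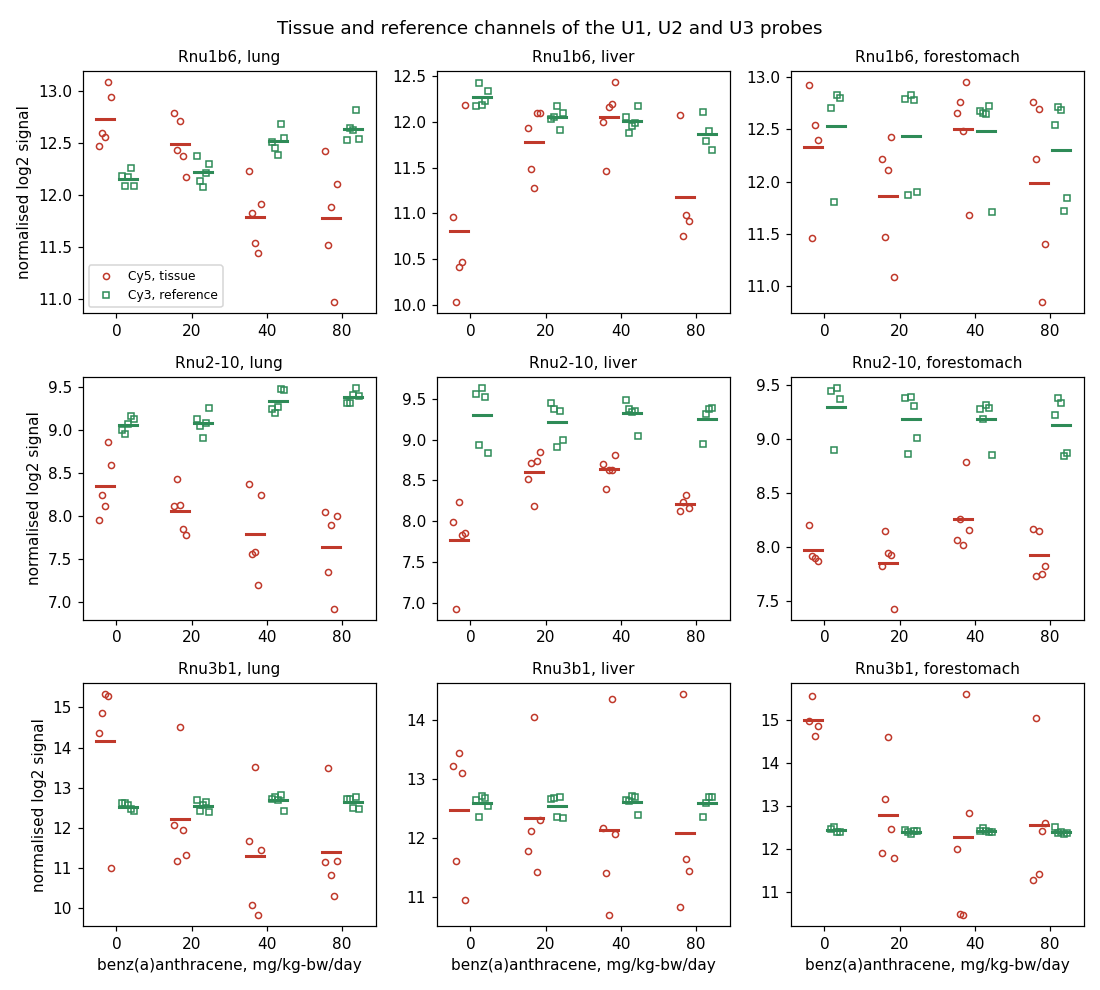
Normalised log2 signal of the tissue channel (Cy5, circles) and the reference channel (Cy3, squares) for each gene and tissue by BaA dose, with 1 point an array and lines at the group means. In lung the Rnu1b6 Cy3 mean went from 12.16 to 12.63 while its Cy5 mean went from 12.73 to 11.78, and the Rnu3b1 Cy3 points lie in a narrow band in every panel.

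At D0 the levels differed between tissues, each relative to the same reference. Rnu1b6 was highest in lung (0.58 ± 0.25), then forestomach (-0.20 ± 0.28) and liver (-1.46 ± 0.84), and the ranges of lung and forestomach did not overlap, whereas those of forestomach and liver did. Rnu2-10 was at -0.71 ± 0.30 in lung, -1.32 ± 0.27 in forestomach and -1.53 ± 0.38 in liver. Forestomach and liver differed by less than their spread, and the lung and forestomach ranges overlapped between -1.04 and -0.98. Rnu3b1 was at 2.56 ± 0.34 in forestomach, 1.63 ± 1.76 in lung and -0.12 ± 1.01 in liver (SD, n = 4 in forestomach and 5 elsewhere), with overlap between lung and each other tissue and none between forestomach and liver. Over all 12 groups, the highest and lowest means were those of D0 lung and D0 liver for Rnu1b6, D1 liver (-0.62) and D3 lung (-1.75) for Rnu2-10, and D0 forestomach and D2 lung (-1.37) for Rnu3b1. Most neighbours in these orders differed by less than their SD. Each tissue had its own slides, so tissue and slide cannot be told apart.

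The D3 effect itself was set against that of another tissue in a joint model. Lung minus liver was -2.19 (SE 0.39) for Rnu1b6 and -1.53 (SE 0.32) for Rnu2-10, past the thresholds, and -2.49 (SE 1.25) for Rnu3b1, not past them, where 2.07% of all probes passed. Without the lungs of mice 5 and 14 these values were -2.13 (SE 0.40), -1.48 (SE 0.31) and -3.25 (SE 1.21). Lung minus forestomach, where 0.257% of all probes passed, was -1.31 (SE 0.39), -1.15 (SE 0.32) and -0.47 (SE 1.25), and liver minus forestomach, where 0.0453% passed, was 0.88 (SE 0.40), 0.37 (SE 0.33) and 2.02 (SE 1.29), with 0 of 3 past the thresholds in either. The tissues share no control arrays, but many of the mice are the same, and this model treated their tissues as independent. For Rnu3b1, liver and forestomach of the same mouse had r = 0.85 over 18 mice, which the SE of 1.29 does not take into account.

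Whether the log2 ratios vary together from mouse to mouse was asked of the deviations from the group means, which were not used to choose the genes. Of 18 correlations computed, 3 passed an adjusted p of 0.05 by permutation of the arrays within groups (100000 resamples, two-sided, Benjamini-Hochberg over the 18). In lung, mice with a higher Rnu1b6 had a higher Rnu2-10, with r = 0.91 and rho = 0.90 over 20 arrays (permutation p = 2e-05 for both, adjusted p = 0.00036 for both). It was 0.90 without the 2 arrays farthest from the median, 0.90 with the slide means removed, 0.87 in Cy5 alone and 0.90 without mice 5 and 14. The Cy3 signals of these probes, which read the reference RNA, also varied together, with r = 0.71 in lung and 0.98 in forestomach. In liver the same pair had r = 0.71 (permutation p = 0.00434, adjusted p = 0.026) and rho = 0.64 (permutation p = 0.012, adjusted p = 0.0848) over 19 arrays. That relation fell to r = 0.46 without the 2 farthest arrays and to 0.38 in Cy5 alone, so it rests on those arrays, and in Cy3 alone r was -0.75. In forestomach r was 0.35 and rho 0.41 (permutation p = 0.132 and 0.101, adjusted 0.372 and 0.40, n = 19), and r rose to 0.76 once slide means were removed (adjusted permutation p = 0.00117).

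**Figure D4:**
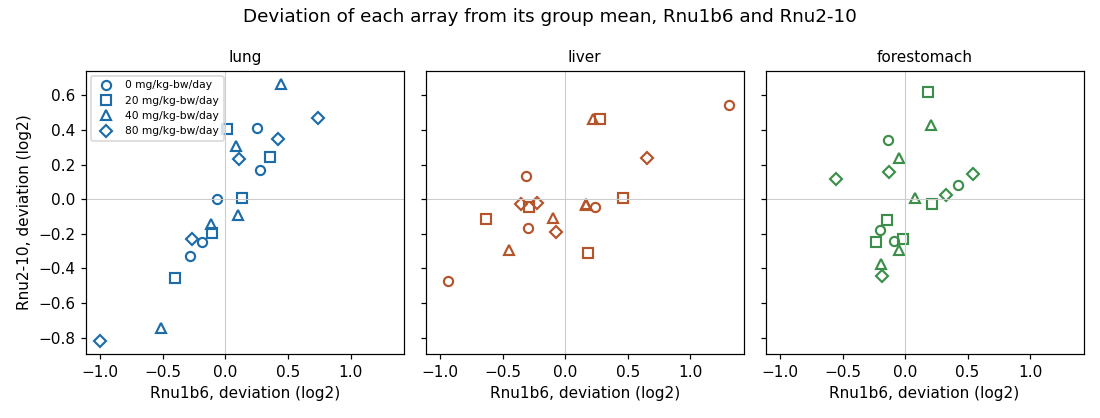
Deviation of each array from the mean of its own tissue and dose group in log2 ratio, Rnu1b6 on the x axis and Rnu2-10 on the y axis, with symbols for the dose. The lung points follow a line (r = 0.91), and the liver points (r = 0.71) and forestomach points (r = 0.35) scatter more widely.

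No correlation of U3 with U1 or U2 passed the threshold. The 6 correlations of Rnu3b1 with Rnu1b6 or Rnu2-10 had r between -0.39 and 0.24, with adjusted permutation p between 0.372 and 0.872. Between tissues of the same mouse, however, Rnu3b1 in liver and forestomach had r = 0.85 (permutation p = 0.0019, adjusted p = 0.0171) and rho = 0.63 (permutation p = 0.0141, adjusted p = 0.0848) over 18 mice. It was 0.68 without the 2 farthest mice (adjusted permutation p = 0.298), so the call rests on those mice. The Cy3 signals of the same arrays had r = -0.34. Lung and liver of the same mouse had r = 0.39 and rho = 0.33 (permutation p = 0.129 and 0.198, adjusted 0.372 and 0.507, n = 19), and lung and forestomach r = 0.15 and rho = 0.16 (permutation p = 0.645 and 0.571, adjusted 0.872 and 0.734, n = 19). Without the lungs of mice 5 and 14, these r were 0.57 and 0.56 (permutation p = 0.0434 and 0.0448, adjusted p = 0.161 for both). Rnu1b6 and Rnu2-10 had r between -0.06 and 0.42 between tissues, with 0 of 6 past the threshold. Without the same lungs, r of Rnu1b6 in lung and forestomach was 0.53 (adjusted permutation p = 0.292).

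Values of other small RNAs on the array stand beside those of the 3 genes, which were picked for their change while these were not. The 7 with a probe that passed the filter in a tissue were Rmrp and Rpph1 (the RNAs of RNase MRP and RNase P), Rnu12 (the minor spliceosome), Rnu7 (histone 3′ ends), Snora74a and Snord123 (guides of ribosomal RNA modification) and Terc (telomerase RNA), which was not tested in liver. None passed both thresholds at any dose in any tissue (0 of 7). Unadjusted p under 0.05 was seen for 3 of 7 in lung at D3 (42.9%, against 23.9% of all probes) and for 1 of 6 in liver (16.7%, against 15% of all probes). Snora74a differed from D0 in lung at D3 by -0.51 (SE 0.14, limma adjusted p = 0.0303) and in liver at D2 by 0.48 (SE 0.09, limma adjusted p = 0.0123), with adjusted p under the threshold and folds below it. Its signal was near background, since the spot was well above background on 1 of 5 D0 livers, 4 of 5 D2 livers, 1 of 4 D3 livers and 3 of 5 D3 lungs, so these values and p rest on dim spots. Its lungs read -1.88, -1.74, -1.90, -1.40 and -1.34 at D0 and -1.89, -2.31, -2.04, -2.66 and -1.91 at D3, which overlap. Its D0 livers read -1.21, -1.46, -1.08, -1.30 and -1.18 and its D2 livers -0.82, -0.83, -0.59, -0.76 and -0.81, all higher than D0.

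For the D3 effect in lung minus liver, 2 of the 6 other small RNAs tested passed, where 2.07% of all probes passed. Both had a more negative value in lung. They were Rmrp (-0.95, SE 0.28, limma adjusted p = 0.0422) and Snora74a (-0.71, SE 0.17, limma adjusted p = 0.00671), the latter with the dim spots just given. The Rmrp spot was well above background on every lung and liver array of D0 and D3. Rmrp was -0.58 (SE 0.24) from D0 in lung and 0.38 (SE 0.15) in liver, neither past the thresholds. The median D3 change of the 7 was -0.20 in lung, 0.12 over 6 in liver and -0.05 in forestomach, where the median over all probes was 0 in lung and liver and -0.01 in forestomach.

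**Figure D5:**
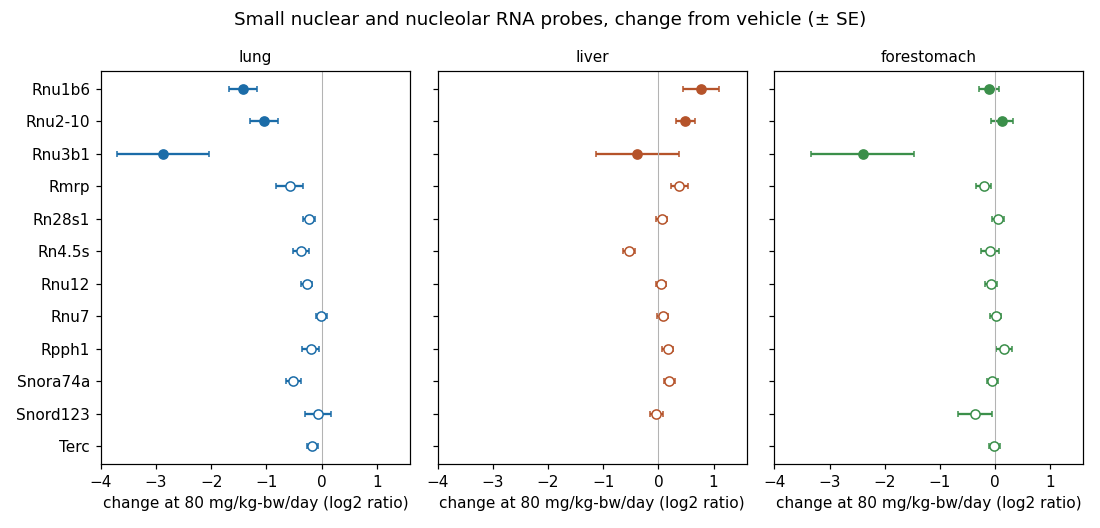
Change in log2 ratio from D0 to 80 mg/kg-bw/day (x axis, ± SE) for the U1, U2 and U3 genes (filled) and other small or ribosomal RNAs (open) in each tissue. Rnu1b6 stood at -1.43 in lung and 0.77 in liver, and the open points lie between -0.58 and 0.38.

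The genes whose pattern was most like each member were found by r over 58 arrays of the log2 ratio minus the tissue mean, among 11407 genes tested in all tissues. These values are descriptions over arrays that share doses and slides. For Rnu1b6 the highest were Rnu2-10 (0.85), Snora74a (0.74), the calpain gene Capn11 (0.72), the ribosomal RNA Rn28s1 (0.68) and Akap11 (0.67), an anchor of protein kinase A. The lowest were Prpf39 (-0.80), a U1 particle protein, Nxf1 (-0.79), the main export receptor of messenger RNA, and Ap5z1 (-0.79). For Rnu2-10 they were, after Rnu1b6 (0.85), Snora74a (0.76), the long nuclear RNA Tug1 (0.67), Azin1 (0.66) and Nbeal1 (0.65), and at the other end Clk2 (-0.83), a kinase of splicing factors, Pank4 (-0.78) and Prpf39 (-0.77). Snora74a and Prpf39 stood in both lists.

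With the dose group means removed as well, r fell to 0.69 for Rnu1b6 with Rnu2-10, to 0.45 and 0.60 for Snora74a with Rnu1b6 and Rnu2-10, to -0.59 for Prpf39 with Rnu1b6 and to -0.71 for Clk2 with Rnu2-10. In forestomach taken alone, r of Prpf39 with Rnu1b6 was -0.26, against -0.90 in lung and -0.82 in liver. Snora74a, with the dim spots given above, had r of -0.12 with Rnu1b6 and 0.19 with Rnu2-10 in forestomach, against 0.90 and 0.89 in lung. Others held there, such as Capn11 with Rnu1b6 (0.76) and Clk2 with Rnu2-10 (-0.61). Nothing was as like Rnu3b1. Among its highest were Banp (0.54), D430042O09Rik (0.52), the B cell gene Cd22 (0.50) and the chaperone gene Dnaja1 (0.48). For Dnaja1, r was 0.06 with group means removed. The lowest were Fbxo3 (-0.63), Zfp386 (-0.58) and Serpina3f (-0.55).

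Protein partners, the genes that make, trim and degrade these RNAs, the other small RNAs above, host genes of nucleolar RNAs, and histone and ribosomal transcripts formed 9 lists written from general knowledge, which held 235 probes tested for lung, 220 for liver and 240 for forestomach. At D1, 0 probes passed the thresholds in any tissue. At D2, 1 rose in lung (Exosc7, 0.60, SE 0.10) and 1 fell in liver (Snrnp70, -0.66, SE 0.12), the latter being the protein that binds the first loop of U1. These were 0.426% of the list probes in lung, against 0.556% of all probes, and 0.455% in liver, against 0.588%. At D3, 6 rose and 3 fell in lung (3.83% of the probes, against 1.88% of all probes), 0 rose and 2 fell in liver (0.909% against 0.434%) and 0 of 240 changed in forestomach, where limma gave an unadjusted p under 0.05 for 25 (10.4%, against 5.11% of all probes). The share with such an unadjusted p was 23.4% in lung, against 23.9% of all probes, and 21.8% in liver, against 15%. With Cy5 alone, 5 rose and 0 fell in lung at D3, and with arrays centred on their median and slides blocked, 11 rose and 0 fell, a centring under which the median of all lung probes shifted by 0.15. Without mice 5 and 14, 5 rose and 1 fell. The lists had a median D3 change of -0.01 (lung), 0.01 (liver) and -0.06 (forestomach).

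Proteins of the U1 particle gave 3 of the rises in lung and 1 fall in liver. Prpf39, which helps U1 to bind weak splice sites, rose with both of its probes, from -0.87 ± 0.18 to -0.18 ± 0.14 (SD, n = 5 each) in one, a change of 0.69 (SE 0.09, limma adjusted p = 0.000252), and by 0.67 (SE 0.14, limma adjusted p = 0.00514) in the other. Prpf40b rose by 0.59 (SE 0.10, limma adjusted p = 0.000942) with 1 probe, while its other probe was at -0.12 (SE 0.22). In liver Luc7l3, a U1-associated protein, fell by 0.74 (SE 0.13, limma adjusted p = 0.0122). The D3 effect on Prpf39 differed between lung and liver with both probes (0.93, SE 0.19, and 0.73, SE 0.16), and so did that on Prpf40b (0.74, SE 0.14). Of 13 probes of the 9 U1 protein genes, 3 rose and 0 fell in lung, and the list's median change was 0.06.

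U2 particle genes gave 0 of 22 probes past the thresholds in lung and 1 of 20 in liver, Htatsf1, which fell by 0.68 (SE 0.13, limma adjusted p = 0.0149) and whose other probe was at -0.39 (SE 0.29). Of the Sm ring and its assembly, 1 of 41 probes changed in lung, the cap-binding subunit gene Ncbp2 (-0.59, SE 0.16, limma adjusted p = 0.0272; its other probe was at -0.52, SE 0.09), and 0 of 39 in liver. Among transcription and 3′ end formation genes of these RNAs 0 of 28 changed in lung and 0 of 27 in liver.

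The U3 particle and the small subunit processome, the assembly that U3 works in, gave 2 falls among 43 probes in lung and 0 of 43 in liver. Mphosph10, a core protein of the U3 particle, fell from 0.15 ± 0.25 to -0.56 ± 0.11 (SD, n = 5 each), a change of -0.71 (SE 0.12, limma adjusted p = 0.00104). Utp14a fell by 0.60 (SE 0.10, limma adjusted p = 0.00146). The other probes of these genes were at -0.08 (SE 0.09) for Mphosph10 and -0.15 (SE 0.10) for Utp14a, so the falls rest on 1 probe each. In nuclear RNA decay 1 of 28 probes rose in lung, that of the exosome gene Exosc7 (0.61, SE 0.10, limma adjusted p = 0.000899). Of the host genes of nucleolar RNAs 1 of 9 probes rose in lung, Snhg16 (0.67, SE 0.16, limma adjusted p = 0.0105), whose other probe was at 0.13 (SE 0.13). Of histone and ribosomal transcripts 1 of 44 rose, the histone gene H2bu2 (0.65, SE 0.16, limma adjusted p = 0.0149). All of these probes kept their sign over the 7 scalings run, and they passed the thresholds under 3 (Prpf40b) to 6 of them.

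On adjusted p alone, with no fold threshold, the dose trend was called for 15 rising and 14 falling list probes in lung (12.3%, against 11.6% of all probes). It was called for 2 rising and 3 falling in liver (2.27%, against 0.676% of all probes). In forestomach it was called for 0 of 240, where 34 had an unadjusted limma p under 0.05 (14.2%, against 5.25% of all probes). The D3 effect differed between lung and liver for 12 of 220 probes (5.45%, against 2.07% of all probes), 9 more positive and 3 more negative in lung. The 9 were 2 probes of Prpf39 and 1 each of Prpf40b, Exosc7, Zcchc7, Snapc4, Snhg1, Snhg3 and Snhg16, and the 3 were Rmrp, Snora74a and the processome gene Bysl. Snhg3, a host gene of small nucleolar RNAs, was 0.46 (SE 0.12) in lung and -0.58 (SE 0.15) in liver, a difference of 1.03 (SE 0.18, limma adjusted p = 0.000187). Without mice 5 and 14 the counts were again 9 and 3.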

How the data were processed

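RNA of 58 tissues was measured on 2-colour Agilent arrays. The scanner output the authors deposited gives linear spot intensities, per the file headers, and they also deposited log2 ratios normalised by LOWESS. The ratio medians per array were -0.0445 to -0.0222, and r with the ratios computed here was 0.9948 to 0.998, so scale (log2), direction (Cy5 over Cy3) and centring are known. Here the median signals, without background correction, were normalised by loess within arrays, leaving out outlier spots (0.495%). Spots of 432 probes were averaged. Accessions were named from a RefSeq table (GRCm38.p6): 26413 of 55681 probes matched 20018 symbols. The array grid was built on another assembly, so no coordinates are given, and no probe sequences were used here.

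Tests used limma 3.58.1 in R 4.3.3, 1 model of 4 groups per tissue (the study used MAANOVA, not available here), two-sided, Benjamini-Hochberg over probes whose Cy5 spots were well above background on 4 or more arrays of the tissue (30381 in lung, 22786 in liver, 32313 in forestomach). The thresholds were an adjusted p of at most 0.05 and 1.5-fold. Tissues were compared in a joint model of the 12 groups. Cy5 and Cy3 levels came from loess followed by Aquantile. The dose group fit of each tissue, read at D3, and the estimate of a correlation within groups were tested on simulated data. The joint model, the dose trend, the slide and mouse blocks and the permutation p were not. No pair of arrays was identical (0). The number of arrays limits the precision.

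Members and lists were chosen with earlier results of these data known. Named genes were the 3 members, up to 5 genes past the thresholds per list, the 5 most and 3 least like each member (1 of them is not reported here), and the other small RNAs. Snrnp70 (called at D2 only), the genes of the lung minus liver comparison, and Rn28s1 and Rn4.5s in the plot of small RNAs were added after values were seen. Tissues with the same number come from the same mouse, per the labels. The consensus correlation of tissues of 1 mouse was 0.0517. The normexp alternative (offset 50) used median signals. Alternatives were the authors' table, normexp, median centring, Agilent processed signals, slide as a block, Cy5 alone, other filters and fewer groups. Each mouse of D0 and D3, but none of D1 or D2, was also left out singly. Those added after seeing the data were median centring with the slide as a block and lung without mice 5 and 14.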

Additional observations from a re-analysis of the deposited data

Results flagged for a closer look

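Among 36 groups of the 3 genes, 5 held an array far from the rest by Dixon's test, which chance would give in about 1 of 20 groups. For Rnu3b1 these were the low D0 lung of mouse 5 (-1.41), the high D1 lung of mouse 8 (1.93) and the high D3 liver of mouse 17 (1.84). For Rnu2-10 they were the high D1 forestomach of mouse 7 (-0.71) and the low D3 forestomach of mouse 17 (-1.65).

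The D3 effect in lung minus liver was -2.19 for Rnu1b6 and -1.53 for Rnu2-10, given as a description because both were chosen for their dose changes. Among list genes the D3 effect differed, by a test of the difference itself, in lung minus liver for Snhg16 (1.24), Snhg3 (1.03), Prpf39 (0.93 and 0.73 with its probes), Zcchc7 (0.82), Exosc7 (0.78), Prpf40b (0.74), Snapc4 (0.65), Snhg1 (0.64), Rmrp (-0.95), Bysl (-0.72) and Snora74a (-0.71, with dim spots in liver). It differed in lung minus forestomach for Prpf39 (0.85) and in liver minus forestomach for the Integrator gene Ints8 (0.67).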

How the results depend on the processing

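The D3 differences of the 3 genes in lung stayed negative over all 21 alternatives, at -1.61 to -0.95 for Rnu1b6, -1.44 to -0.71 for Rnu2-10 and -3.64 to -2.39 for Rnu3b1. They passed the thresholds under 20, 19 and 9 of them. Median centring passed none of the 3 (-1.10, -0.77 and -2.39), and 0 probes on the whole array passed under it in lung. With the slide as a block added, all 3 passed. For Rnu3b1, leaving out any D0 or D3 lung except those of mice 5 and 17 ended the call (-2.86 to -2.58). Rnu1b6 moved to -0.95 in Cy5 alone, and Rnu2-10 in liver to 1.04 with Agilent processed signals.

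List probes past the thresholds in lung at D3 (9) were 0 with median centring, 5 with Cy5 alone and 5 to 11 without 1 mouse, with 5 without mouse 17 or without mouse 19. In liver (2) they were 0 with median centring, 4 with processed signals, 1 with only D0 and D3 fitted and 1 to 4 without 1 mouse, the 4 without mouse 5 and the 1 without mouse 18 or 19. In forestomach (0) Cy5 alone gave 1, at D3 and for the trend. The lung trend (29) was 0 with median centring. The liver trend (5) was 8 with the authors' table, 0 with median centring, 11 with the slide as a block and 3 with Cy5 alone. The lung minus liver count (12) was 0 with median centring, and with the mouse as a replicate block it was again 12 (9 more positive, 3 more negative), and all 12 probes were shared, so pairing changed no call there.

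The liver correlation of Rnu1b6 with Rnu2-10 lost its call with slide means removed (0.71), the authors' table (0.68), Cy5 alone (0.38) and without the 2 farthest arrays (0.46). That of Rnu3b1 in liver and forestomach lost it without the 2 farthest mice (0.68), which left 1 of 18 past the threshold. The cause of these moves was not tested.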
